A study of Mus musculus with 20 samples.

Results

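The 10 genes described here are the acute-phase reactants *Saa1*, *Saa2*, *Saa3*, *Saa4*, *Orm1*, *Orm2*, *Lcn2*, *Lrg1* and *Hp*, together with *Socs3*, which were picked by symbol out of the 54532 mouse genes of the count table. All 10 passed the filter on low counts, a level of 2 CPM or more in 3 or more mice (CPM being counts scaled to library size with TMM factors), as did 12289 genes in all. Livers came from 20 male C57BL/6 mice in 4 groups of 5, with 1 library per mouse. Every mouse, controls included, was first kept for 12 weeks on high-fat food (HFD) and was then operated on, either by Roux-en-Y gastric bypass (RYGB), which joins a small stomach pouch to the jejunum, or by a sham operation. For the 8 weeks after surgery the Sham Chow and RYGB Chow mice ate chow and the Sham HFD and RYGB HFD mice stayed on HFD. The design therefore holds no mouse without an operation and no mouse that was never fed HFD, and the study's methods name body weight as a confounder between groups, and body weight was not analysed here. The mice were a random subset of a larger cohort, and their age is not given in the sources used here.

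The acute-phase response is the change in plasma proteins that the liver makes when it senses inflammation. Interleukin-6 and its relatives bind receptors that share the gp130 subunit and activate JAK kinases and STAT3, interleukin-1 and tumor necrosis factor act through NF-kB, and C/EBP factors join both routes at the promoters of hepatocyte genes. Serum amyloid A proteins, orosomucoids, haptoglobin, lipocalin-2 and leucine-rich alpha-2-glycoprotein are secreted products of this program, whereas SOCS3 is an intracellular inhibitor that STAT3 induces and that shuts off signaling from gp130.

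The 4 *Saa* genes lie within 1 cluster on chromosome 7 (GRCm38, here and throughout), with *Saa1* (ENSMUSG00000074115) from 46740497 to 46742980 and *Saa2* (ENSMUSG00000057465) from 46751790 to 46754313 on opposite strands. *Saa3* (ENSMUSG00000040026) runs from 46711998 to 46715700 and *Saa4* (ENSMUSG00000040017) from 46727998 to 46732603. *Orm1* (ENSMUSG00000039196, 63344560 to 63348163) and *Orm2* (ENSMUSG00000061540, 63362449 to 63365878) are neighbors on chromosome 4. The others are single genes, *Lcn2* (ENSMUSG00000026822) on chromosome 2 from 32384633 to 32388252, *Lrg1* (ENSMUSG00000037095) on chromosome 17 from 56119678 to 56122001, *Hp* (ENSMUSG00000031722) on chromosome 8 from 109575128 to 109579172, and *Socs3* (ENSMUSG00000053113) on chromosome 11 from 117966079 to 117970047. All are protein coding, and no exon of theirs overlapped an exon of another gene in the annotation.

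RefSeq promoters were found for 8 of the 10 genes, without *Orm1* and *Hp*. Shown here are the 250 bases before the transcription start of the pair with near-identical promoters and of *Lcn2*, *Lrg1* and *Socs3*, whose levels differed in other ways between the groups. They are read 5′ to 3′ on the gene's own strand from GRCm38.p6, and capitals mark letters that match a searched motif. *Saa1* is at chr7:46742981-46743230 (- strand), *Saa2* at chr7:46751583-46751832 (+ strand), *Lcn2* at chr2:32387740-32387989 (- strand), *Lrg1* at chr17:56121947-56122196 (- strand) and *Socs3* at chr11:117969367-117969616 (- strand). The starts are RefSeq's and can differ from the ends of the gene positions given above. The *Lcn2* and *Socs3* stretches lie wholly within those gene positions, and the *Saa2* and *Lrg1* stretches partly.
Saa1: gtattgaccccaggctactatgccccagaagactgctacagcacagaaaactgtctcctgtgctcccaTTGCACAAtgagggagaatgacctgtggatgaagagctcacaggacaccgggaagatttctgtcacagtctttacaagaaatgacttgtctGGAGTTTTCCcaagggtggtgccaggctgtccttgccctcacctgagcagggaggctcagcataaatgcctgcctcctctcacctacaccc
Saa2: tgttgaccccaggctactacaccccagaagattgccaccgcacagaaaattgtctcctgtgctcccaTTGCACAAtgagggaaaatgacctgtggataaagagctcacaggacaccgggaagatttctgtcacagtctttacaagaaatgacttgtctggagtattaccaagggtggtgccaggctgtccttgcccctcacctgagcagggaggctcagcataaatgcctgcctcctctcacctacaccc
Lcn2: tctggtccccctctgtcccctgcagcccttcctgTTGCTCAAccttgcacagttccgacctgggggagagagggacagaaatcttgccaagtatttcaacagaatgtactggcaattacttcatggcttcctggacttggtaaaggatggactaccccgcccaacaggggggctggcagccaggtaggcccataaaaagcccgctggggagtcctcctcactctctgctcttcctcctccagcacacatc
Lrg1: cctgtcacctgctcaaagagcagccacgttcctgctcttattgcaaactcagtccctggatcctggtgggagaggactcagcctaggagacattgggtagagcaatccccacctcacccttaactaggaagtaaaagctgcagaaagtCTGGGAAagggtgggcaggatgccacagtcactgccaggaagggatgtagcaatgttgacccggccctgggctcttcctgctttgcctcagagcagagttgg
Socs3: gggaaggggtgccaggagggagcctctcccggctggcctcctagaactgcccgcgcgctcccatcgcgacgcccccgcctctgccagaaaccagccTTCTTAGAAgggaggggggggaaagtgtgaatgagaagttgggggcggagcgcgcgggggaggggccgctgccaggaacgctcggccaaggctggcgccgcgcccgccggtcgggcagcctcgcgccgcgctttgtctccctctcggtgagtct

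Motifs were searched on both strands of the 300-base windows that run to 50 bases past the start, in the 8 promoters and in all 32851 promoters of the table. The C/EBP type motif TTNNGCAA was in 6 of the 8 promoters (*Saa1*, *Saa2*, *Saa3*, *Saa4*, *Orm2* and *Lcn2*) and in 10.8% of all promoters. The NF-kB type motif (GG, then 3 bases of any kind, then TTTCC) was in the *Saa1* promoter, at positions -91 to -82 from the start, and not in that of *Saa2*, although both windows were identical at 287 of 300 bases (95.7%). This motif was in 5.48% of all promoters. *Lrg1* held the interleukin-6 response element type motif CTGGGAA at -102 to -96 (11.1% of all promoters) and *Socs3* the STAT type motif TTCNNNGAA at -154 to -146 (8.30% of all promoters). No match of one motif overlapped a match of another. These matches describe letters and not binding, which was not measured.

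Total counts ran from 14604854 to 22537498 per mouse, and 0 of the 20 columns of counts were identical. The 10 genes differed widely in depth, from 17 to 732 counts per mouse for *Lcn2* and 24 to 243 for *Saa3* up to 25448 to 69229 for *Hp*. Hepatocyte markers were high in every mouse (7 genes, summed CPM 80398 to 131146), as the label of liver implies. Of the 12 neutrophil markers, *Ly6g* had no count in any mouse and the summed CPM was 2.85 to 7.44, with the highest sums in Sham HFD replicate 2 (7.44), RYGB Chow replicate 3 (7.20) and RYGB Chow replicate 5 (6.68). RYGB Chow replicate 3 stood apart in having the highest summed CPM of the 10 macrophage markers (569, against 113 to 444 in the other mice). In bulk liver, fewer cells of a type and less RNA per cell cannot be told apart.

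On CPM per kilobase of transcript, the scale used to compare levels between genes, *Hp* was the most abundant of the 10 (mean 1877 over 20 mice), followed by *Orm1* (609), *Lrg1* (322) and *Saa4* (129). *Saa1* (64.3), *Saa2* (31.5), *Orm2* (15.9), *Lcn2* (11.7), *Saa3* (7.39) and *Socs3* (4.74) were far lower. The plot of levels by mouse shows each gene on its own scale.

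**Figure D1:**
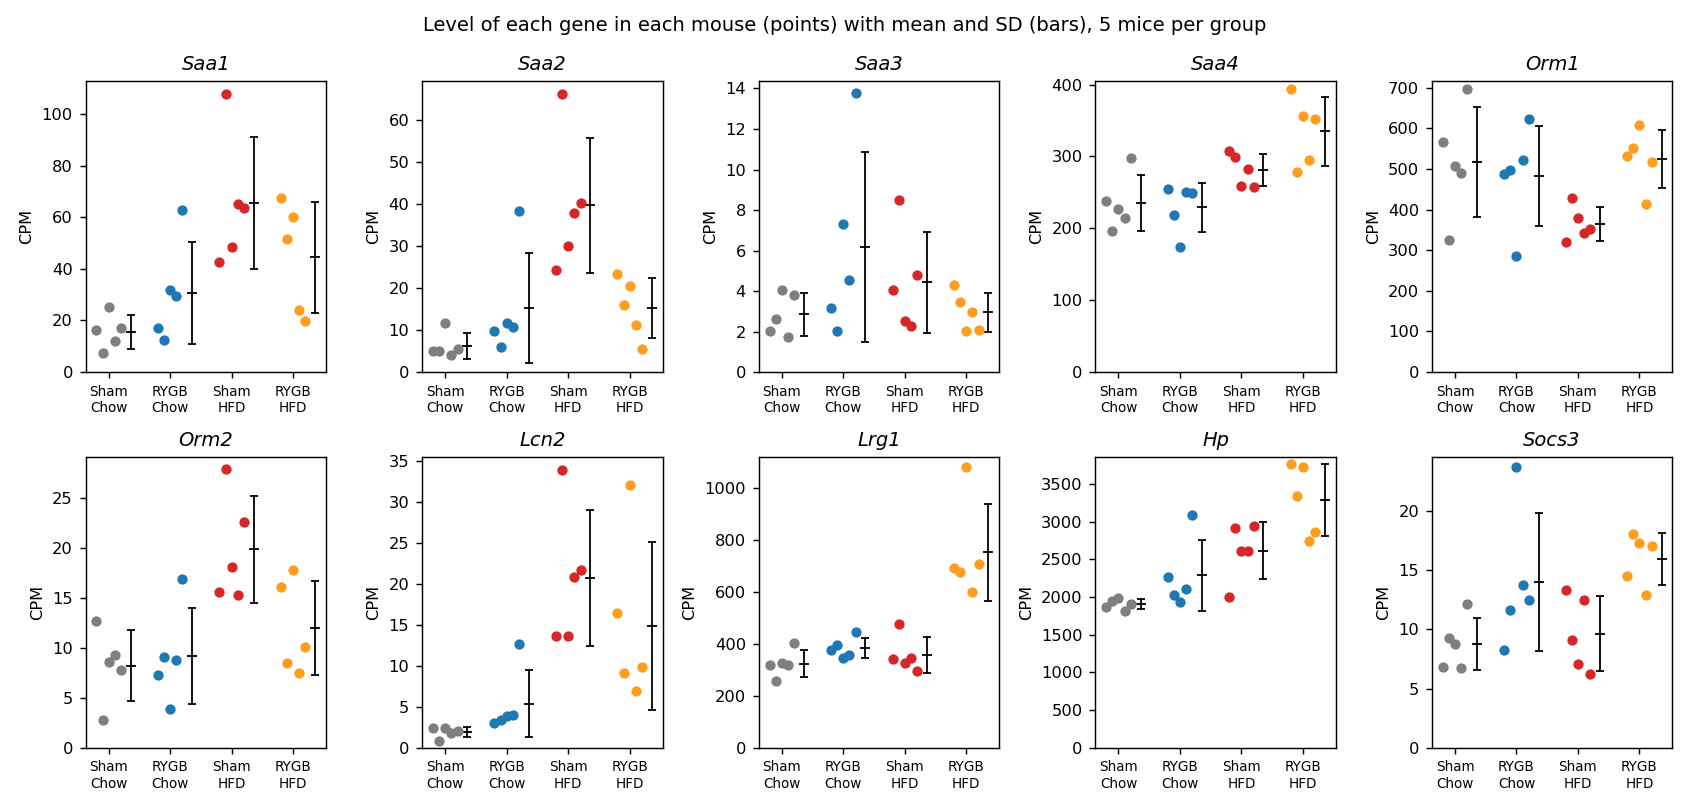
CPM of each of the 10 genes (y axis, starting at 0) in each of the 20 mice (points, in order of replicate number) by group (x axis), with the group mean and SD (bars, n = 5). *Lcn2* lay between 0.88 and 2.46 CPM in Sham Chow and between 13.6 and 33.8 in Sham HFD, and *Lrg1* between 600 and 1078 CPM in RYGB HFD, above all mice of the other groups.

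HFD in sham mice, tested as Sham Chow vs. Sham HFD, asks what continued HFD did to the livers of mice without a bypass. By edgeR's quasi-likelihood test with Benjamini-Hochberg adjustment over the 12289 genes (adjusted p under 0.05), 5 of the 10 genes rose (*Saa1*, *Saa2*, *Orm2*, *Lcn2* and *Hp*) and 1 fell (*Orm1*), where 21.6% of all tested genes changed. At an unadjusted p under 0.05 it was 7 of 10, with *Saa4* as the added gene (0.26 ± 0.12, log2 fold change ± SE), against 35.7% of all genes. The 5 mice of a group did not overlap the 5 of the other for 5 genes, those that rose, and for 16.5% of all genes. The median log2 fold change was 0.55 over the 10 genes and -0.00467 over all tested genes. *Saa3*, *Lrg1* and *Socs3* did not pass the test (log2 fold changes 0.63, 0.14 and 0.13).

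*Lcn2*, which encodes the siderophore-binding protein lipocalin-2, had the largest log2 fold change of the 10 genes. Its CPM was 2.46, 0.88, 2.36, 1.86 and 2.00 in Sham Chow replicates 1 to 5 and 13.7, 33.8, 13.6, 20.8 and 21.6 in Sham HFD. Every Sham HFD mouse lay above every Sham Chow mouse, at 10.8 times the mean level (log2 fold change 3.43 ± 0.47, adjusted p = 4.86e-05). *Lcn2* is also a neutrophil granule gene, and the summed CPM of the neutrophil markers was 2.85 to 3.38 in Sham Chow and 3.65 to 7.44 in Sham HFD. *Ly6g* was at 0 and *Mpo* at 0 in all 10 of these mice, but *Mpo* had at most 2 counts in any mouse of the study. *Csf3r*, the neutrophil marker that was tested, was at 1.68 ± 0.26 CPM in Sham Chow and 2.42 ± 0.57 in Sham HFD (log2 fold change 0.52 ± 0.23, adjusted p = 0.104). The part of neutrophils in the *Lcn2* level was not tested.

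*Saa2*, one of the pair of acute serum amyloid A genes of the liver, was at 4.92, 5.02, 11.7, 4.07 and 5.58 CPM in Sham Chow and at 24.3, 66.0, 29.9, 37.7 and 40.3 in Sham HFD (log2 fold change 2.64 ± 0.46, adjusted p = 4.38e-04). *Saa1*, its partner, was at 7.56 to 25.2 CPM in Sham Chow and 42.8 to 108 in Sham HFD (2.06 ± 0.42, adjusted p = 0.00162). Neither gene's groups overlapped, and Sham HFD replicate 2 was the highest of its group for both, as it was for 7 of the 10 genes. *Orm2*, an orosomucoid that carries small lipophilic ligands in plasma, rose from a mean of 8.22 ± 3.55 to 19.8 ± 5.35 CPM (SD, n = 5 each), by 1.27 ± 0.35 on the log2 scale (adjusted p = 0.0133). *Hp*, which encodes the hemoglobin-binding protein haptoglobin, went from 1903 ± 66.4 to 2616 ± 380 CPM (0.46 ± 0.13, adjusted p = 0.0134).

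*Orm1*, the abundant paralog of *Orm2*, moved the other way. It was at 567, 325, 508, 491 and 696 CPM in Sham Chow and 319, 429, 380, 342 and 353 in Sham HFD, so that the groups overlapped through Sham Chow replicate 2. Its log2 fold change was -0.50 ± 0.18 (adjusted p = 0.0483), a call that held in 5 of the 20 fits that left out 1 mouse each (adjusted p 0.0102 to 0.155) and in 5 of the 10 other settings.

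The question of Sham HFD vs. RYGB HFD is how bypass changed the liver under the same diet. Of the 10 genes *Lrg1*, *Orm1* and *Socs3* rose and *Saa2* fell, that is 4 of 10 where 16.4% of all genes changed. At an unadjusted p under 0.05 it was 7 of 10, with *Saa4* and *Hp* upward and *Orm2* downward, against 30.7% of all genes. Groups did not overlap for *Lrg1* and *Saa2*, and for 14.7% of all genes. The 10 genes split by direction, 5 up and 5 down, with a median log2 fold change of -0.11 (0.01 over all genes). Per gene the calls for *Saa2*, *Orm1* and *Socs3* were not firm, and only *Lrg1* was called in each of the 20 fits without 1 mouse.

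*Lrg1*, which encodes a secreted leucine-rich glycoprotein that modulates TGF-beta signaling in vessels, was at 341, 475, 324, 346 and 294 CPM in Sham HFD and at 693, 677, 1078, 600 and 707 in RYGB HFD. The lowest RYGB HFD mouse was above the highest Sham HFD mouse, and the mean was 2.11 times higher (log2 fold change 1.08 ± 0.15, adjusted p = 6.12e-05). Without RYGB HFD replicate 3, the highest mouse, the log2 fold change was 0.91.

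*Saa2* in the RYGB HFD mice was at 23.3, 15.9, 20.4, 11.2 and 5.45 CPM, each below the lowest Sham HFD mouse at 24.3. Its log2 fold change was -1.37 ± 0.43 (adjusted p = 0.0318), and without Sham HFD replicate 2 it was -1.11 (adjusted p = 0.0996). With the counts of *Saa1* and *Saa2* summed it was -0.81 and not called (adjusted p = 0.177). For *Saa1* the RYGB HFD mice, at 67.6, 51.5, 60.1, 23.95 and 19.8 CPM, ran through the range of the Sham HFD mice, and its log2 fold change of -0.55 ± 0.40 did not pass the test (adjusted p = 0.367). *Lcn2* likewise ranged from 6.86 to 32.0 CPM in RYGB HFD (-0.48 ± 0.40, adjusted p = 0.451), with its highest value in replicate 3, without which the log2 fold change was -0.97 (adjusted p = 0.0927).

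*Socs3*, the feedback inhibitor, was at 13.3, 9.11, 7.05, 12.5 and 6.23 CPM in Sham HFD and at 14.5, 18.1, 17.4, 12.9 and 17.1 in RYGB HFD. The groups touched at RYGB HFD replicate 4, which lay below Sham HFD replicate 1. The log2 fold change was 0.74 ± 0.24 (adjusted p = 0.0422), and the call held in 12 of the 20 fits without 1 mouse (adjusted p 0.0163 to 0.114) and in 7 of 9 other settings. *Orm1* was at 532, 553, 608, 413 and 517 CPM in RYGB HFD, within the range of the Sham Chow mice (0.52 ± 0.18 against Sham HFD, adjusted p = 0.0493), and this call held in 6 of the 20 fits (adjusted p 0.0178 to 0.107).

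**Figure D2:**
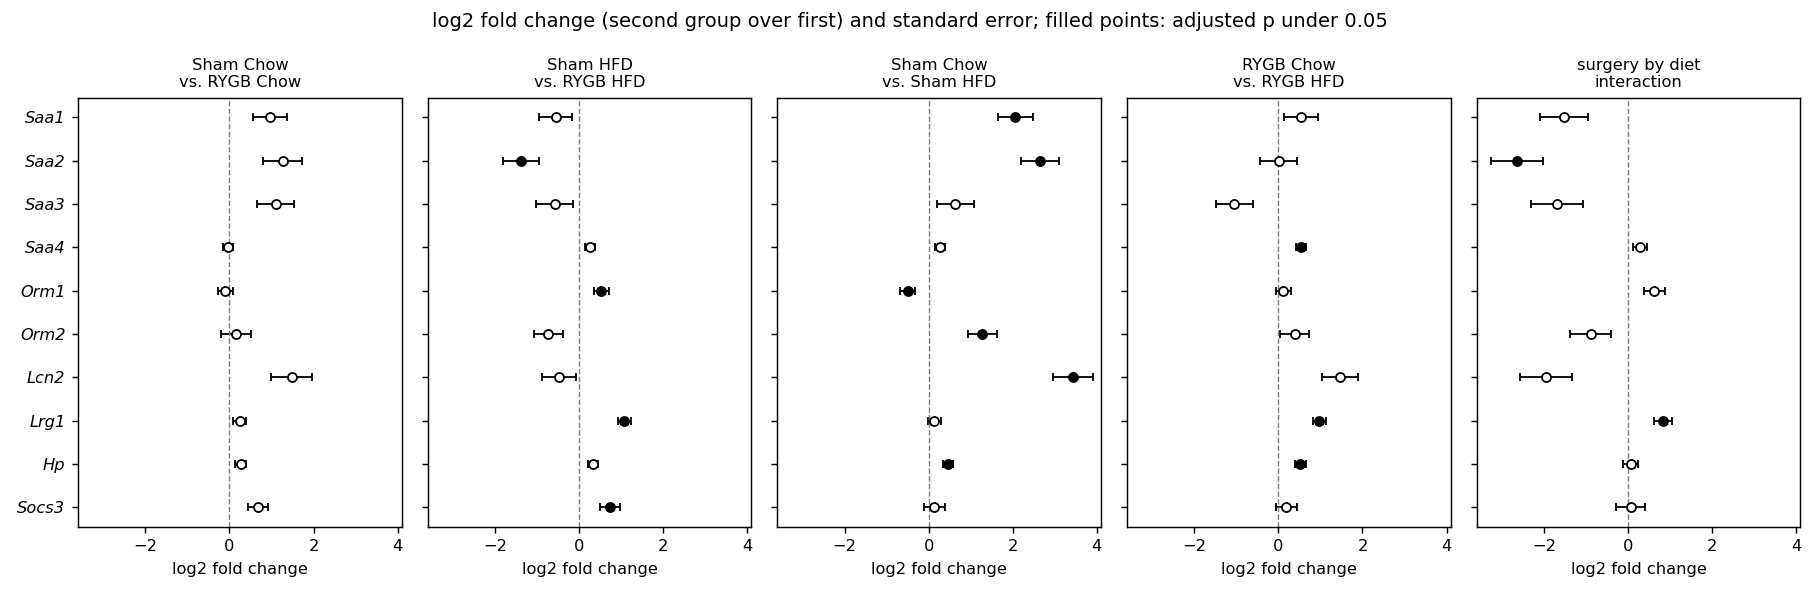
log2 fold change of the second group over the first (x axis, points, with standard errors as bars) for each of the 10 genes (y axis) in the 4 comparisons and the surgery by diet interaction, with filled points for an adjusted p under 0.05. In Sham HFD vs. RYGB HFD, *Saa2* at -1.37 and *Lrg1* at 1.08 lie on opposite sides of 0, and no point is filled in Sham Chow vs. RYGB Chow.

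On chow, in Sham Chow vs. RYGB Chow, which asks what bypass did in mice that had left HFD, 0 of the 10 genes passed the adjusted threshold, and 0.057% of all genes did. DESeq2 and limma-voom also called 0 of the 10. At an unadjusted p under 0.05 it was 6 of 10, all upward (*Saa1*, *Saa2*, *Saa3*, *Lcn2*, *Hp* and *Socs3*), against 10.8% of all genes. The only gene whose groups did not overlap was *Lcn2*, as did not 1.33% of all genes. The median log2 fold change was 0.47 over the 10 genes. No marker of the other cell types listed was called in this comparison. The 10 macrophage markers had a median log2 fold change of 0.86 (summed CPM 113 to 300 in Sham Chow and 235 to 569 in RYGB Chow), and the summed neutrophil markers did not overlap (2.85 to 3.38 and 4.01 to 7.20). Only 1 of the 12 neutrophil markers was tested, *Csf3r*, with means of 1.68 and 3.26 CPM within mean sums of 3.22 and 5.63. In every RYGB Chow mouse 7 of the 12 had at most 3 counts, and *Elane*, *Ltf* and *Mmp8* had lower means than in Sham Chow. The part of these cells in the levels of the 10 genes on chow was not tested.

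RYGB Chow replicate 5 carried much of this. It was the highest mouse of its group for 8 of the 10 genes, all but *Saa4* and *Socs3*, with a *Saa2* level of 38.3 CPM against 9.75, 5.92, 11.6 and 10.8 in the other RYGB Chow mice. Its *Lcn2* level of 12.6 CPM stood against 3.05, 3.34, 3.85 and 4.01. Its summed neutrophil marker CPM of 6.68 was the second highest of the group (4.01 to 7.20). Its summed CPM of the 5 B and T cell markers, 10.02, was far above that of the other RYGB Chow mice (1.54 to 3.37) and of the other groups (at most 5.63). The part of these cells in the result was not tested. Without this mouse the log2 fold change fell from 1.48 to 0.89 for *Lcn2*, from 1.26 to 0.59 for *Saa2*, from 0.97 to 0.53 for *Saa1*, from 1.10 to 0.57 for *Saa3* and from 0.27 to 0.13 for *Hp*. The other 4 RYGB Chow mice, at 3.56 ± 0.44 CPM of *Lcn2*, were still all above the Sham Chow mice.

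*Socs3* on chow rested on another mouse. It was at 6.86, 9.31, 8.74, 6.78 and 12.1 CPM in Sham Chow and at 8.28, 11.7, 23.7, 13.8 and 12.5 in RYGB Chow, overlapping at the low end. Its log2 fold change was 0.68 ± 0.24 (adjusted p = 0.308) and 0.40 without RYGB Chow replicate 3, the mouse with the highest macrophage marker sum. That mouse was the lowest of its group for *Saa4*, *Orm1*, *Orm2*, *Lrg1* and *Hp*. Its summed CPM of the hepatocyte markers was also the lowest of the group (81223, the others 95435 to 131146). The part of this in the levels of these genes was not tested. The interaction of surgery and diet for *Socs3* was 0.06 ± 0.34 (adjusted p = 0.944), and a p that misses the threshold does not show that surgery acted alike on both diets.

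**Figure D3:**
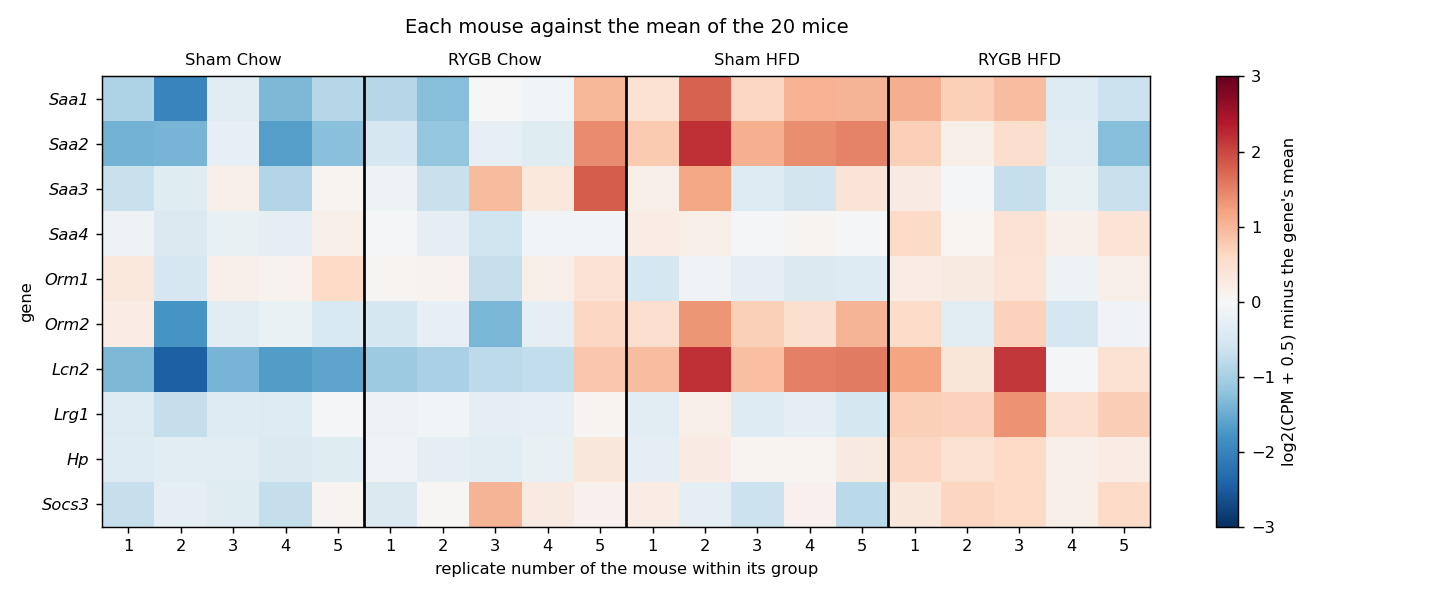
log2(CPM + 0.5) of each of the 10 genes (rows) in each mouse (columns, by group and replicate number) after subtracting the gene's mean over 20 mice, in color from -3 (blue) to 3 (red). RYGB Chow replicate 5 is redder than the rest of its group in 8 of 10 rows, and Sham HFD replicate 2 is the reddest of its group in 7.

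HFD after bypass, RYGB Chow vs. RYGB HFD, asks whether operated mice still responded to the diet. *Saa4*, *Lrg1* and *Hp* rose, 3 of 10 genes where 3.65% of all genes changed. At an unadjusted p under 0.05 it was 5 of 10, with *Lcn2* upward and *Saa3* downward as the added ones, against 18.8% of all genes, and groups did not overlap for *Saa4* and *Lrg1* and for 5.05% of all genes. The median log2 fold change was 0.46 over the 10 genes.

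*Lrg1* was at 375, 395, 345, 355 and 444 CPM in RYGB Chow, below each RYGB HFD mouse (log2 fold change 0.97 ± 0.15, adjusted p = 7.45e-04). *Saa4*, the constitutive serum amyloid A gene, was at 254, 219, 174, 250 and 250 CPM in RYGB Chow and 394, 278, 357, 294 and 352 in RYGB HFD, with no overlap (0.55 ± 0.12, adjusted p = 0.0153). *Hp* reached its highest levels of the study in RYGB HFD, 3289 ± 474 CPM against 2288 ± 467 in RYGB Chow (0.52 ± 0.13, adjusted p = 0.0250). It lost the call when RYGB Chow replicate 2, 3 or 4 or RYGB HFD replicate 1 or 3 was left out (adjusted p up to 0.0687). With only 2 groups in the model neither *Saa4* (adjusted p = 0.0574) nor *Hp* (adjusted p = 0.0951) was called. *Saa4* also lost its call with both RYGB Chow replicates 3 and 5 left out, an alternative added after the data were seen (adjusted p = 0.0746). *Lcn2* rose in the means from 5.37 to 14.9 CPM without passing the test (1.47 ± 0.43, adjusted p = 0.0571), though DESeq2 (adjusted p = 0.0343) and the fit without a filter (adjusted p = 0.0380) called it. Without RYGB Chow replicate 5 it was 2.06 (adjusted p = 0.00744) and without RYGB HFD replicate 3 it was 0.98 (adjusted p = 0.203).

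The surgery by diet interaction tests whether the diet effect differed between bypass and sham mice. It was called for *Saa2* (-2.64 ± 0.63, adjusted p = 0.0185) and *Lrg1* (0.84 ± 0.21, adjusted p = 0.0259), 2 of the 10 genes where 5.06% of all genes were called. At an unadjusted p under 0.05 it reached 6 of 10, against 20.8% of all genes. For *Saa2* the diet effect was 2.64 in sham mice and 0.01 in bypass mice, and for *Lrg1* it was 0.14 and 0.97. *Lcn2* (-1.95 ± 0.62, adjusted p = 0.0748), *Saa3* (-1.68 ± 0.62, adjusted p = 0.118) and *Saa1* (-1.52 ± 0.57, adjusted p = 0.127) had the sign of *Saa2* without passing, and *Orm1* that of *Lrg1* (0.62 ± 0.25, adjusted p = 0.159). The *Saa2* value was -1.96 without RYGB Chow replicate 5 (adjusted p up to 0.0372 over the 20 fits), and it was no longer called with *Saa1* and *Saa2* summed (-1.88, adjusted p = 0.0640) or, in an alternative added after seeing the data, with both RYGB Chow replicates 3 and 5 left out (-1.86, adjusted p = 0.0580). The *Lrg1* interaction lost its call in 3 of the 20 fits without 1 mouse, those without Sham Chow replicate 5, Sham HFD replicate 3 or Sham HFD replicate 5 (adjusted p up to 0.0550). The *Lcn2* interaction was called by DESeq2 (adjusted p = 0.0445), with library size only (adjusted p = 0.0430) and without RYGB HFD replicate 3 (-2.44, adjusted p = 0.0167).

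In order of their group means, *Saa1*, *Saa2*, *Orm2* and *Lcn2* were highest in Sham HFD and lowest in Sham Chow. *Saa4*, *Orm1*, *Lrg1*, *Hp* and *Socs3* were highest in RYGB HFD. *Saa3*, which macrophages and fat cells also make, was highest in RYGB Chow (6.16 ± 4.68 CPM) on the strength of replicate 5 at 13.8 CPM, and no comparison called it. Neighboring groups in these orders overlapped for every gene, except between RYGB HFD and RYGB Chow for *Lrg1* and between RYGB Chow and Sham Chow for *Lcn2*. The CPM of the 9 reactants, most of it *Hp*, summed to 3014 ± 227 in Sham Chow and 3450 ± 661 in RYGB Chow. On HFD the sum was 3768 ± 476 in sham mice and 4989 ± 731 in bypass mice.

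Paralogs of the same family were compared within each mouse by the ratio of their counts, which does not depend on library scaling. *Saa1* over *Saa2* was 1.58 to 1.76 in the Sham HFD mice and 2.14 to 3.63 in the RYGB HFD mice, without overlap. The geometric means were 1.66 and 2.93 (exact permutation test on the log2 ratio, two-sided, p = 0.00794, the smallest that 5 mice against 5 allow; 8 such comparisons, p unadjusted). Sham Chow (1.51 to 3.31) and RYGB Chow (1.64 to 2.73) overlapped each other.

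*Orm1* over *Orm2* was 15.4 to 22.5 in Sham HFD, below the 44.8 to 116 of Sham Chow and the 33.1 to 65.5 of RYGB HFD (exact permutation test, p = 0.00794 for both comparisons). *Orm3*, a further orosomucoid gene next to them, went the way of *Orm2*, with 6.15 ± 1.91 CPM in Sham HFD against 1.22 ± 1.03 in Sham Chow and 1.67 ± 0.45 after bypass on HFD. It rose in Sham HFD (2.32 ± 0.45, adjusted p = 0.00118) and fell in RYGB HFD against it (-1.88 ± 0.44, adjusted p = 0.0053). The transcripts of *Saa1* and *Saa2* were identical at 93.9% of bases and those of *Orm1* and *Orm2* at 91.0%. No stretch of 150 bases, the read length per the study's methods, was shared within either pair, while 13.2% and 20.4% of 50-base stretches were, so counts of each pair may have mixed to a degree that was not tested.

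**Figure D4:**
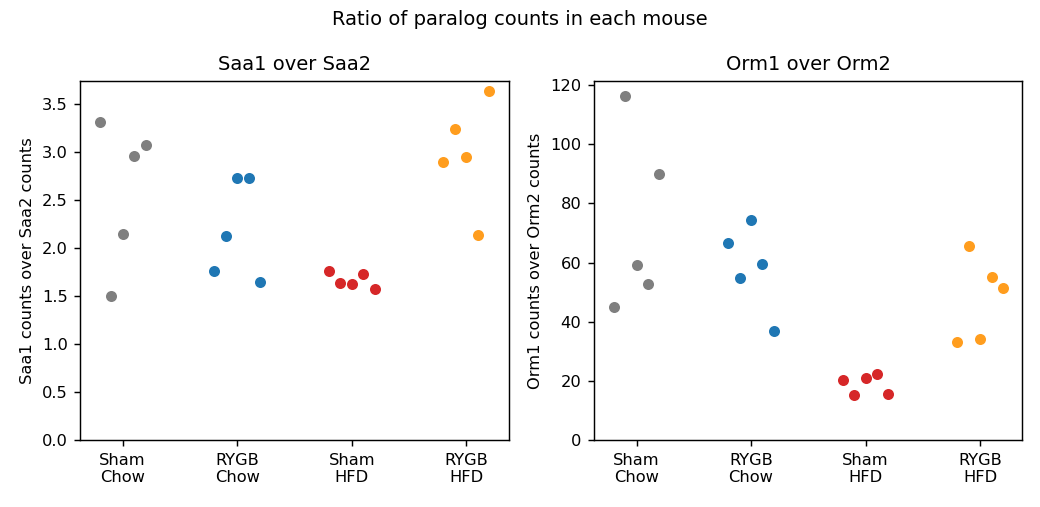
Ratio of *Saa1* to *Saa2* counts (left) and of *Orm1* to *Orm2* counts (right) on the y axis, starting at 0, for each mouse (points) by group (x axis). The Sham HFD mice lie between 1.58 and 1.76 on the left and between 15.4 and 22.5 on the right, and on the right they are below all other mice.

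Over the 20 mice, after subtracting group means, *Saa1* and *Saa2* rose and fell together (Pearson r 0.91, Spearman rho 0.90, and r 0.87 without the 2 mice farthest from the median). *Orm1* and *Orm2* did so more loosely (r 0.83, rho 0.67, and 0.65 without 2 mice), as did *Orm2* and *Lcn2* (r 0.79, rho 0.84, and 0.87). *Socs3* did not follow the reactants on these subtracted values, with r from -0.39 (*Orm2*) to 0.24 (*Saa3*). Without the subtraction its r ran from -0.26 (*Orm2*) to 0.60 (*Lrg1*). These values are descriptions over 20 livers of the same libraries, and no test was made on them. All other tested genes were ranked by likeness to these genes, so that the reactants and *Socs3* themselves could not take a place. In this ranking *Lrg1* was most like *Prtn3* (r 0.94 over 20 mice), *Itih3* (0.94) and *Hc* (0.89). *Hp* was most like *C4b* (0.91), *Tmem176a* (0.90) and *Tmem176b* (0.87), and *Lcn2* most like *Slc13a3*, *Prg4* and *Stap1* (all 0.89). The 3 most like *Orm2* were *Ctso* (0.90), *Orm3* (0.87) and *Lect2* (0.87), and *Plgrkt* came first for both *Saa1* (0.92) and *Saa2* (0.87). *Socs3* was most like *Abcg8* (0.84), *Tbl3* (0.79) and *Mat2a* (0.78). After subtracting group means, *Plgrkt* stayed first for *Saa1* (0.83). Other genes then took the first 3 places for *Lrg1*, *Hp*, *Lcn2*, *Socs3*, *Orm2* and *Saa2*. In that order the first were *Trappc1* (0.82), *Mrpl16* (0.89), *Hpx* (0.84), *Tpp1* (0.83), *Cyp21a2-ps* (0.86) and *Parp3* (0.85).

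Other positive acute-phase genes were taken as a list of 20, of which 19 were tested (*Mt2* was not). In Sham Chow vs. Sham HFD 6 rose and 4 fell, where 21.6% of all genes changed, and in Sham HFD vs. RYGB HFD 10 rose and 3 fell, where 16.4% did. The 3 that fell there were *Hamp*, *Il1rn* and *Orm3*, the last pair named after their values were seen. In RYGB Chow vs. RYGB HFD 10 rose and 1 fell (3.65% of all genes), and on chow 0 changed. Median log2 fold changes were -0.06 for HFD in sham mice and 0.50 for bypass on HFD.

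The fibrinogen genes, which encode the clotting protein, had the signs of *Orm1* in both HFD comparisons. *Fgb* was at 3706 ± 447 CPM in Sham Chow, 2936 ± 282 in Sham HFD and 5253 ± 336 after bypass on HFD, falling by 0.34 ± 0.09 on the log2 scale with HFD (adjusted p = 0.0152) and rising by 0.84 ± 0.09 with bypass on HFD (adjusted p = 8.67e-06). *Fga* and *Fgg* had the same signs and calls in both comparisons (0.68 and 0.75 with bypass on HFD). *C3*, the central complement component, fell by 0.47 ± 0.11 and rose by 1.03 ± 0.11 (adjusted p = 3.19e-06). *Itih3*, a heavy chain of inter-alpha-trypsin inhibitor, and *Fgl1*, a hepatocyte-secreted fibrinogen-like protein, rose with bypass on HFD (1.10 ± 0.13 and 1.41 ± 0.20) and were not called for HFD in sham mice (-0.09 and 0.27). *Apcs*, which encodes serum amyloid P, the acute-phase pentraxin of mice, rose by 0.84 ± 0.16 with bypass on HFD (adjusted p = 0.00111), and *Crp*, the C-reactive protein gene, was at 378 to 428 CPM in the group means and was not called in any comparison. *Hamp*, the iron hormone hepcidin that interleukin-6 also induces, was at 830 ± 197 CPM in Sham Chow and 93.4 ± 198 after bypass on chow. This difference was not called (adjusted p = 0.268). *Hamp* was at 327 ± 88.9 in Sham HFD and 0.18 ± 0.19 after bypass on HFD (adjusted p = 1.66e-04 for bypass on HFD).

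**Figure D5:**
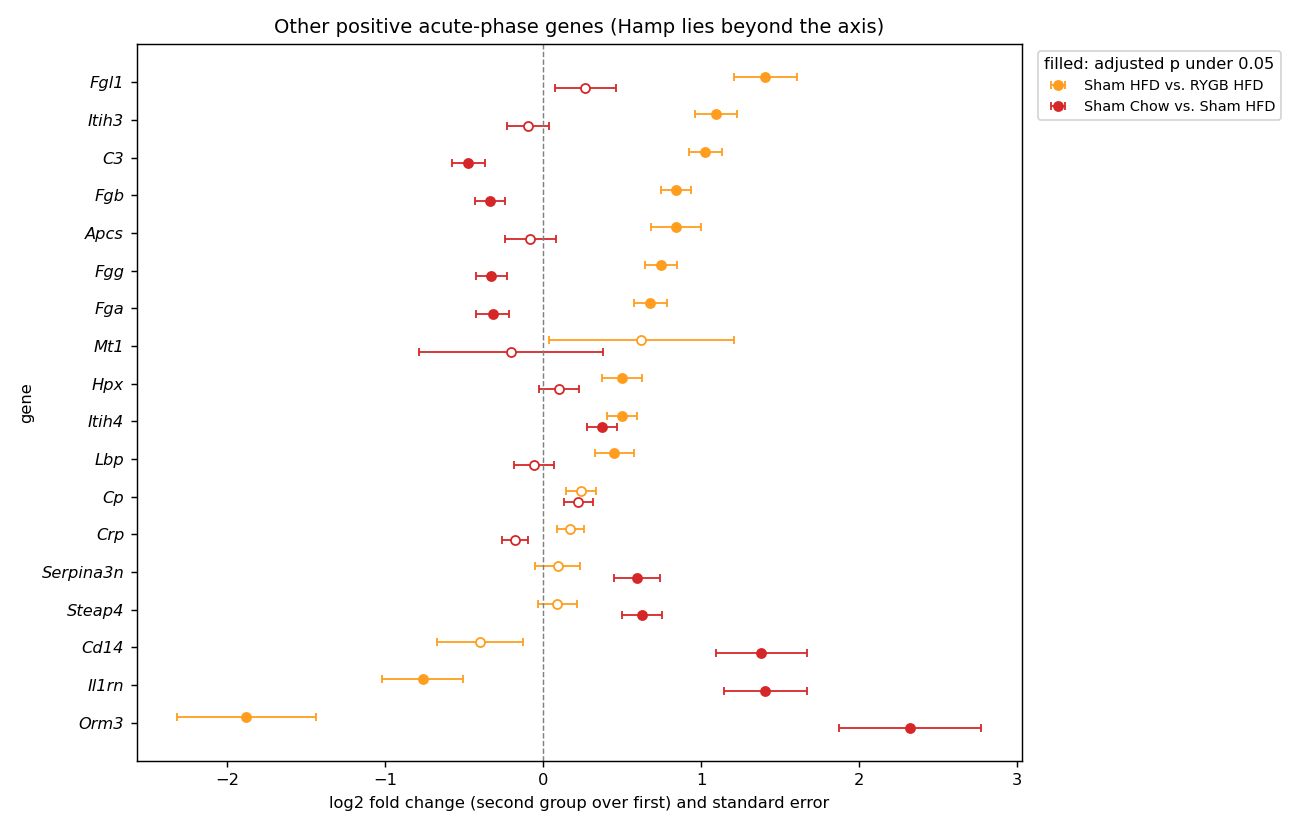
log2 fold change with standard error (x axis) of 18 of the 19 tested positive acute-phase genes outside the 10 (y axis) in Sham HFD vs. RYGB HFD (orange) and Sham Chow vs. Sham HFD (red), filled for an adjusted p under 0.05; *Hamp*, at -10.7 in the former, is off the axis. *C3*, *Fgb*, *Fgg* and *Fga* lie left of 0 in red and right of 0 in orange, and *Orm3* the reverse.

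Of 9 negative acute-phase genes, whose plasma products fall in inflammation, 6 rose and 1 (*Ttr*) fell in Sham HFD vs. RYGB HFD, and 4 fell and 1 (*Serpina6*) rose in Sham Chow vs. Sham HFD, against 16.4% and 21.6% of all genes. *Fetub*, which encodes fetuin-B, was at 249 ± 15.7 CPM in Sham HFD and 507 ± 16.4 in RYGB HFD (1.02 ± 0.09, adjusted p = 5.37e-07). *Ahsg* (fetuin-A, 0.78), *Trf* (transferrin, 0.59) and *Apoa1* (apolipoprotein A-I, 0.88) also rose there and were lower in Sham HFD than in Sham Chow. *Ttr* (transthyretin) fell by 0.45 ± 0.10 (adjusted p = 0.00412).

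Among 15 genes of cytokines, receptors and kinases, 11 were tested. With bypass on HFD 4 of these rose and 0 fell, where 16.4% of all genes changed. With HFD in sham mice 3 rose and 2 fell, where 21.6% did. *Il6* was at 0 to 0.12 CPM and *Tnf* at 0.12 to 0.34 in the group means, under the filter, as were *Osm* and *Lif*. In Sham HFD vs. RYGB HFD 4 receptor genes rose, namely *Il6ra* (41.0 ± 9.06 to 82.9 ± 21.9 CPM, 1.02 ± 0.21, adjusted p = 0.00195), *Lifr* (1.14 ± 0.21, adjusted p = 9.66e-04), *Il1r1* (1.63 ± 0.30, adjusted p = 7.53e-04) and *Il1rap* (0.38 ± 0.07, adjusted p = 6.87e-04). In Sham Chow vs. Sham HFD *Osmr* (1.00), *Tyk2* (0.28) and *Il1b* (1.08, adjusted p = 0.0476) rose, and *Lifr* (-1.35) and *Il1rap* (-0.34) fell. *Il6st*, the gp130 gene, and *Jak1* were not called in any comparison, with log2 fold changes of -0.13 and -0.05 for bypass on HFD.

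Of 9 transcription factor genes, 1 was called with bypass on HFD and 2 with HFD in sham mice, against 16.4% and 21.6% of all genes. *Hnf4a* rose with bypass on HFD (0.49 ± 0.13, adjusted p = 0.0166). In sham mice *Hnf4a* was lower with HFD (-0.43), as was *Cebpa* (-0.30). *Stat3* was at 98.5 ± 15.5 CPM in Sham Chow and 113 ± 10.9 after bypass on chow, and at 107 ± 12.5 in Sham HFD and 126 ± 6.29 after bypass on HFD, and was not called. Of 15 feedback and early response genes 14 were tested, *Socs1* not. With bypass on HFD 1 rose and 2 fell, against 16.4% of all genes. With HFD in sham mice 2 rose and 2 fell, against 21.6%. *Socs2*, the family member that restrains growth hormone signaling, was at 9.20 ± 2.18 CPM in Sham HFD and 26.2 ± 11.1 in RYGB HFD (1.5 ± 0.43, adjusted p = 0.0195). It was lower in Sham HFD than in Sham Chow (-1.92). *Tnfaip3*, a brake on NF-kB, rose with HFD in sham mice (1.23 ± 0.20) and fell with bypass on HFD (-0.61 ± 0.20, adjusted p = 0.0382), as did *Socs5* (0.46 and -0.53), and *Nfkbia* fell with HFD in sham mice (-0.34).

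Markers of other cells moved in the same comparisons. Of all genes, 21.6% changed in Sham Chow vs. Sham HFD and 16.4% in Sham HFD vs. RYGB HFD. All 5 stellate cell markers rose in Sham Chow vs. Sham HFD (summed CPM 129 to 187 against 268 to 337) and 3 of 5 fell in Sham HFD vs. RYGB HFD (169 to 274 in RYGB HFD). Of 10 macrophage markers 7 rose in Sham Chow vs. Sham HFD (summed CPM 113 to 300 against 278 to 375) and 0 changed in Sham HFD vs. RYGB HFD (246 to 444 in RYGB HFD). Adipocyte markers summed to 2.68 to 9.74 CPM in Sham HFD and 0.93 to 24.4 in RYGB HFD, with the highest sums in RYGB HFD replicates 1 (24.4) and 3 (12.5). Nearly all of the RYGB HFD sum was *Cfd* (mean 8.40 of 8.45 CPM). *Adipoq*, *Plin1*, *Lep* and *Retn*, all under the filter, had higher means in Sham HFD (0.34, 0.62, 0.19 and 0.19 CPM) than in RYGB HFD (0.01, 0.04, 0 and 0). Of the 7 hepatocyte markers 0 rose and 3 fell in Sham Chow vs. Sham HFD, and 5 rose and 1 fell in Sham HFD vs. RYGB HFD. *Alb*, *Apoa1* and *Ttr* are on both that list and the list of negative acute-phase genes. The part of these cells in the levels of the 10 genes was not tested.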

How the data were processed

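Poly-A RNA of 20 mouse livers was sequenced as paired reads. The authors used Trimmomatic 0.36 for trimming, HISAT2 2.1.0 for alignment against mm10 and featureCounts 1.5.0-p3 to make the deposited raw counts per Ensembl gene, which are not normalized. The annotation release, the strand setting and the treatment of multi-mapping reads are not given in the sources used here. GENCODE M21 supplied symbols and positions and named 54495 of the 54532 genes.

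The 12289 genes at 2 CPM or more in 3 or more mice were tested with edgeR 4.0.16 (TMM, quasi-likelihood, R 4.3.3) in 1 model of the 4 groups. Tests were two-sided, and p-values were adjusted by Benjamini-Hochberg across all tested genes. Exact permutation tests took all splits of 5 mice against 5. They used the log2 count ratio for paralogs and log2(CPM + 0.5) for single genes (40 comparisons, unadjusted, smallest possible p 0.00794). In Sham HFD vs. RYGB HFD the exact permutation p was 0.00794 for *Lrg1* and *Saa2* and 0.0159 for *Socs3* and *Orm1*. The fits were tested on simulated counts. The lowest count of any of the 10 genes was 17, where counting error is largest.

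The 10 genes and all lists were chosen with earlier results of these data known. From each list up to 6 genes called in at least 1 comparison were named, smallest p first. Always named were *Il6*, *Il6ra*, *Il6st*, *Jak1*, *Stat3*, *Il1b*, *Tnf*, *Apcs*, *Crp* and *Hamp*. Also named were the 3 genes outside the 10 most like *Saa1*, *Saa2*, *Lcn2*, *Orm2*, *Lrg1*, *Hp* and *Socs3*. Promoters are RefSeq's (GRCm38.p6). Alternatives were RLE factors, library size only, DESeq2 1.42.0, limma-voom (limma 3.58.1), no filter, 5 CPM as the minimum, only 2 groups in the model, the replicate number as a block, summed paralogs and leaving out each mouse.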

Additional observations from a re-analysis of the deposited data

Results flagged for a closer look

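Within groups of 5 mice, 3 of the 40 group and gene combinations held a mouse whose distance to the next was over 0.71 of the group's range on the log2(CPM + 0.5) scale, and chance alone gives about 1 in 20. They were *Saa2* in Sham Chow replicate 3 (11.7 CPM, the others 4.07 to 5.58), *Lcn2* in RYGB Chow replicate 5 (12.6 CPM, the others 3.05 to 4.01) and *Lrg1* in RYGB HFD replicate 3 (1078 CPM, the others 600 to 707). On CPM itself 6 combinations did, the added ones being *Saa2* and *Hp* in RYGB Chow and *Lrg1* in Sham HFD.

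The effect of HFD differed between bypass and sham mice by the interaction test for *Saa2* (-2.64, adjusted p = 0.0185) and *Lrg1* (0.84, adjusted p = 0.0259), in opposite directions. The *Saa2* value was smaller in size (-1.96) without RYGB Chow replicate 5, and the *Lrg1* value was 0.67 without RYGB HFD replicate 3. The *Lrg1* call was lost in 3 of the 20 fits without 1 mouse.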

How the results depend on the processing

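Without each mouse in turn, genes called went from 7 to between 0 and 15 in Sham Chow vs. RYGB Chow, from 448 to between 244 and 488 in RYGB Chow vs. RYGB HFD and from 622 to between 377 and 805 in the interaction. Of the 10 genes, 4 became between 1 and 5 in Sham HFD vs. RYGB HFD and 2 became between 1 and 3 in the interaction. Log2 fold changes that changed sign ranged, in Sham Chow vs. RYGB Chow, from -0.092 to 0.066 for *Saa4*, -0.23 to 0.041 for *Orm1* and -0.18 to 0.37 for *Orm2*; from -0.010 to 0.27 for *Socs3* in Sham Chow vs. Sham HFD; from -0.20 to 0.68 for *Saa2* and -0.025 to 0.22 for *Orm1* in RYGB Chow vs. RYGB HFD; and in the interaction from -0.026 to 0.19 for *Hp* and -0.083 to 0.33 for *Socs3*. None of these was called in any fit.

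In Sham Chow vs. RYGB Chow DESeq2 called 92 genes, limma-voom 3, the fit without a filter 13 and that of only 2 groups 0. In RYGB Chow vs. RYGB HFD DESeq2 called 751 and the fit of only 2 groups 184, with 1 of the 10 genes (*Lrg1*). Library size only left 2 of the 10 in Sham HFD vs. RYGB HFD (*Saa2* and *Lrg1*), and turned *Saa4* on chow to 0.00927 and the interaction to -0.066 for *Hp* and -0.12 for *Socs3*. *Saa2* in RYGB Chow vs. RYGB HFD was -0.00156 by DESeq2 and -0.0091 without a filter. With paralogs summed, *Saa2* lost its call in Sham HFD vs. RYGB HFD (-0.81) and in the interaction (-1.88), *Orm1* lost both of its calls (0.46 and -0.43), and *Orm2* took on the values of the sum, mostly *Orm1* by construction, at -0.095 for surgery on chow, 0.46 for surgery on HFD, -0.43 for HFD in sham mice and 0.56 for the interaction. With both RYGB Chow replicates 3 and 5 left out, an alternative added after the data were seen, 177 genes were called in RYGB Chow vs. RYGB HFD, 1 of the 10 in the interaction (*Lrg1*), and *Saa4* on chow was 0.040. The cause of these shifts was not tested.

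With the replicate number as a block, 1 of the 10 genes (*Lrg1*) was called in Sham HFD vs. RYGB HFD, and genes called were 8, 1905, 2535, 368 and 492 in the 4 comparisons and the interaction. Same-numbered mice deviated from their group means with r from -0.257 to 0.165 (30 pairs) and 3 of 20 mice correlated best with their own number, a hint from the data, not the design, that the numbers do not pair mice.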

Other observations

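RYGB HFD replicate 3, the highest mouse of its group for *Lrg1*, was also the highest for *Lcn2* (32.0 CPM), *Orm1* (608) and *Orm2* (17.8), yet the lowest for *Saa3* (2.02). RYGB HFD replicate 5 was the lowest of its group for *Saa1* (19.8 CPM) and *Saa2* (5.45), and its *Socs3* level was 17.1 CPM.

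After group means were subtracted, the genes most like *Saa3* over 20 mice were *Rtp4* (Pearson r 0.85) and *Irf7* (0.84), both interferon-induced genes, and *Shisa5* (0.82). *Serpina3n*, an acute-phase protease inhibitor, was among the 3 most like both *Orm1* (0.85) and *Orm2* (0.86). The values for *Saa3* and *Orm1* were picked out after they were seen, and all of them are descriptions over 20 mice with no test.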
